A study of Mus musculus with 3 samples.

Results

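The cells described here are the 595 untreated bone marrow-derived macrophages (BMDMs) with the largest share of *Tnf* and *Cxcl2* transcripts, called high cells. They were set against the 595 cells of the same library with the smallest share, called low cells. Both were taken from 5949 ranked cells of the untreated library (Ctrl), which holds 6123 of the 16281 barcodes of the series. A cell was ranked if it had more than 500 unique molecular identifiers (UMIs), more than 500 genes, under 5% mitochondrial UMIs and at least 2000 UMIs. Its score was the sum of its *Tnf* and *Cxcl2* UMIs divided by all its UMIs, and the cells were chosen by this score, as the highest and the lowest 10%. The question was how much basal inflammatory transcription an untreated culture holds, and which other genes vary with it.

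The BMDMs were grown from bone marrow of female C3H/HeN mice aged 6 to 8 weeks. Ctrl cells received PBS and were collected at 4 hours. LP1 and LP4 cells received purified lipoproteins of *Borrelia burgdorferi* (*Bb*LP, 1 µg/mL) for 1 or 4 hours. Each condition is 1 library in which the cells of 3 wells were pooled, so there is no replicate of a condition. Well and mouse are not marked in the counts, so differences between wells or mice cannot be told apart from differences between high and low cells. High and low cells shared 1 library, so they were compared as sums of counts, with no test. Levels are the UMIs of a gene per 1000000 UMIs (CPM), summed over the cells of a group, and ratios are log2 of high over low CPM. Brackets give exact 95% intervals (Poisson for levels, conditional binomial for ratios). These cover counting error only and not the spread between cultures or between cells.

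*Tnf* encodes tumour necrosis factor, a secreted cytokine, and *Cxcl2* encodes a chemokine that attracts neutrophils. In macrophages both are early targets of NF-kB, a transcription factor held inactive in the cytoplasm by inhibitor proteins until a receptor such as a Toll-like receptor (TLR) signals. The same signal switches on immediate early genes through MAP kinases. It also switches on genes that end the response, among them NF-kB inhibitors, MAP kinase phosphatases and proteins that destroy cytokine mRNA.

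The 250 bases before the RefSeq transcription start (build GRCm38.p6) are given for 4 genes on which the results turn, both score genes, the neighbouring chemokine gene *Cxcl1* and the inhibitor gene *Nfkbia*. Capitals mark matches to the 10-base kB consensus, searched on both strands.
Cxcl2, chr5:90903649-90903898, + strand: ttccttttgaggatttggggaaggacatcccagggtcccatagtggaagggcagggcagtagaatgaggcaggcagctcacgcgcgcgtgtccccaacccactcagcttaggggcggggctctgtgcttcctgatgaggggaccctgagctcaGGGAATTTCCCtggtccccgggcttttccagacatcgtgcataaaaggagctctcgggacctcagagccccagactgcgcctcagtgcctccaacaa
Tnf, chr17:35202008-35202257, - strand: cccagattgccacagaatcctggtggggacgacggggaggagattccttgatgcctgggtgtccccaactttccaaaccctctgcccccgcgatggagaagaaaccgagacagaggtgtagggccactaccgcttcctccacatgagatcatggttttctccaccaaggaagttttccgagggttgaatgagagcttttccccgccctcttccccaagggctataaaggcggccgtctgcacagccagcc
Cxcl1, chr5:90890995-90891244, + strand: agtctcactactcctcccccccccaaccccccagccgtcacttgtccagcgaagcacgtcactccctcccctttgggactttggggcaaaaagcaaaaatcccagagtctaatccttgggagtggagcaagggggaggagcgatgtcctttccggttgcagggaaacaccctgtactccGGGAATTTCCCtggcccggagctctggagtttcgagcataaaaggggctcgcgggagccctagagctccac
Nfkbia, chr12:55492648-55492897, - strand: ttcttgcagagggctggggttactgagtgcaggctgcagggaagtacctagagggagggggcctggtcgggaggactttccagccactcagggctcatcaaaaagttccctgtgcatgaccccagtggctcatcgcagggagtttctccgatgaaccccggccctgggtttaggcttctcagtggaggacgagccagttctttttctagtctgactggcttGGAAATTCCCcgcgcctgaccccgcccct

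*Cxcl2* and *Cxcl1* carried the same 11 capital letters, a pair of overlapping matches, 1 on each strand. The first base lay 97 bases before the RefSeq start in *Cxcl2* and 71 in *Cxcl1*. The *Cxcl2* gene start given below, from another annotation, lies inside its window, so this distance depends on the annotation. *Nfkbia* had 1 match, and the *Tnf* window had none of these letters. A kB consensus was present in 3.9% of all 32851 RefSeq promoters and in 5.05% of the promoters of the genes tested below. It was present in 10% of the 599 promoters matched to genes called higher in high cells (441 of 547 genes matched) and in 4.92% of the 712 matched to genes called lower (535 of 696). Of the 15 leading higher genes named below 9 were matched, and 0 of their 10 promoters held a kB consensus. The AP-1 site TGANTCA stood in 6.75% of all promoters, 4.62% of promoters of tested genes, 7.35% of those called higher and 4.92% of those called lower. The AP-1 share of the genes called higher is thus near that of all promoters. It is above that of the tested genes, from which they were called, and this difference was not tested. These shares describe letters in a window and not binding.

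The score separated the cells mainly by *Cxcl2*. *Cxcl2* (ENSMUSG00000058427, chromosome 5, 90903871 to 90905938) stood at 9829 CPM [9705 to 9954] in high cells, 4364 CPM in the 4759 cells between the ends and 998 CPM [967 to 1030] in low cells. *Tnf* (ENSMUSG00000024401, chromosome 17, 35199381 to 35202007) stood at 1281 CPM [1237 to 1327], 864 CPM and 380 CPM [360 to 400], in the same order. These values chose the cells and are a description only. Of the UMIs of both genes, *Cxcl2* gave 88.5% in high cells and 72.4% in low cells. No high cell lacked *Cxcl2* and 78 of them (13.1%) had no *Tnf* UMI. Of the low cells 151 (25.4%) had no *Tnf* UMI and 48 no *Cxcl2* UMI. The median score was 106 per 10000 UMIs in high and 15.4 in low cells. At the boundaries the last cell inside had 91.43 and the next outside 91.42, and at the lower end 23.41 and 23.43. There was thus no gap in the score at either boundary. The boundaries were set by shares of cells, so this cannot show whether a separate group exists. The high cells are described here as an end of a range.

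**Figure D1:**
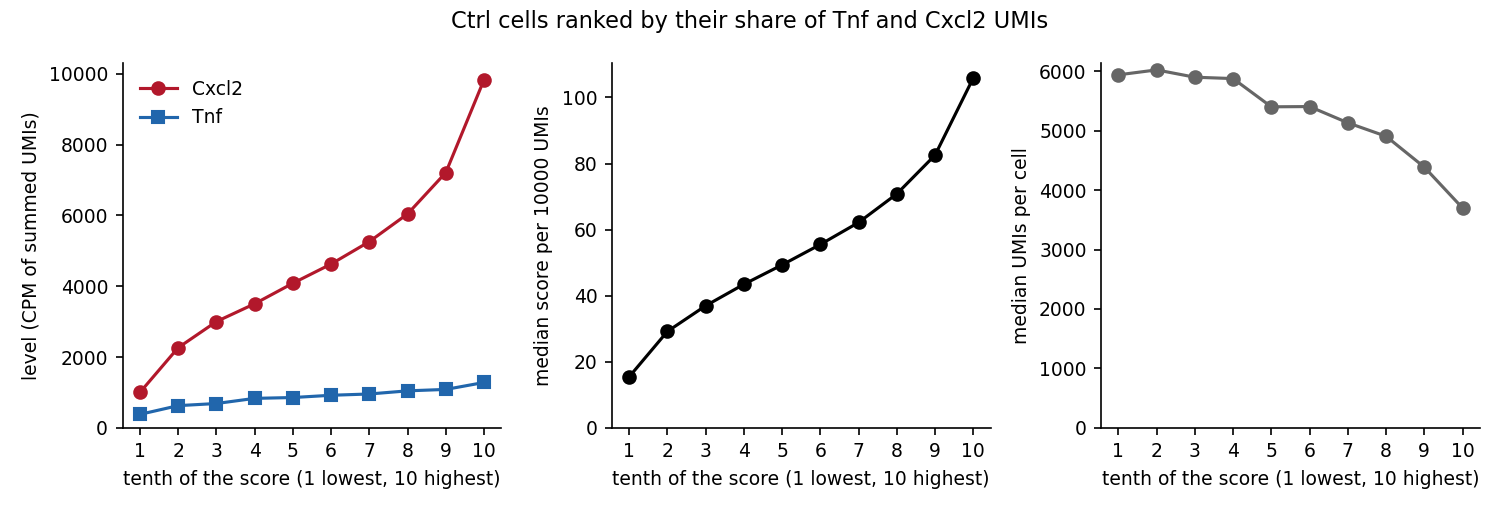
Ctrl cells in 10 equal bins of the score, with the level of *Cxcl2* and *Tnf* in CPM (left), the median score per 10000 UMIs (middle) and the median UMIs per cell (right). *Cxcl2* went from 998 to 9832 CPM and *Tnf* from 380 to 1281 CPM, while the median depth went from 5940 to 3699 UMIs.

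Depth moved with the score. High cells had a median of 3698 UMIs and 1591 genes, and low cells 5940 UMIs and 2235 genes. The sums rest on 2435235 UMIs in high and 3834689 in low cells. The mitochondrial share was 2.02% in high and 2.05% in low cells. Ranking the cells within 10 bins of depth gave high and low cells with medians of 5194 and 5185 UMIs. All 15 genes named below as higher and all 15 named as lower kept their 1.5-fold difference there, with log2 ratios of at least 1.81 and at most -2.26. Of its barcode sequences, 10 also occur in LP1 and 7 in LP4, and 1 high and 2 low cells carry such a sequence. The doublet caller marked 0 of 5949 cells, which is no working result, and its median score was 0.0724 in high and 0.0572 in low cells.

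High and low cells both had the macrophage genes. All 14 of the list passed the level minimum. *Csf1r*, the receptor for the growth factor that maintains macrophages, stood at 977 and 659 CPM. The pan-macrophage marker *Cd68* stood at 821 and 838 CPM, and *Adgre1*, which encodes F4/80, at 199 and 146 CPM. *Lyz2*, which encodes lysozyme, stood at 13193 CPM in high and 6320 CPM in low cells (log2 ratio 1.06 [1.04 to 1.09]). Of the 14 genes, 5 were higher and 1 lower by 1.5-fold. The 5 were *Lyz2*, *Mertk* and the complement genes *C1qa*, *C1qb* and *C1qc*, and the lower gene was *Itgam* (154 against 237 CPM). No gene of the dendritic cell, stromal, lymphoid or erythroid lists reached 20 CPM.

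Cells rich in neutrophil transcripts were found among low cells and not among high cells. In 17 of 595 low cells (2.86% [1.67 to 4.54]) at least 1% of UMIs came from 15 neutrophil genes, against 0 of 595 high cells, which allows a share of up to 0.618%, and 5 of the 4759 cells between. The list summed to 299 CPM in high and 2344 CPM in low cells, and *Mpo* and *Elane*, neutrophil granule enzymes, were at 0 in high cells. Of 10 tested genes of the list 8 were lower and 2 higher, *Mmp8* (221 against 93.9 CPM) and *Csf3r* (47.2 against 23.2 CPM). Osteoclast genes also lay on the low side. In 36 low cells (6.05%) and 2 high cells at least 0.5% of UMIs came from 12 osteoclast genes, a list written after the lower genes had been seen, and it summed to 446 CPM in high and 2018 CPM in low cells. Cells with at least 0.5% of UMIs from genes of G2 and mitosis numbered 9 high and 33 low. In such sums, more cells of a type and more RNA per cell cannot be told apart. Without the cells richest in neutrophil and dendritic cell genes, all 15 genes named below as higher kept a 1.5-fold difference, and so did 10 of the 15 named as lower.

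Of 5723 genes with at least 20 CPM over both groups, *Tnf* and *Cxcl2* left out, 547 (9.56%) were at least 1.5-fold higher in high cells and 696 (12.2%) at least 1.5-fold lower. The median log2 ratio of all tested genes was -0.10. Scaling by TMM or by the median of ratios would add 0.12 or 0.14 to every log2 ratio, and the counts would then be 699 higher and 482 lower, or 728 and 449. All these counts describe an end against an end: against all other cells, high cells had 144 genes higher and 318 lower.

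**Figure D2:**
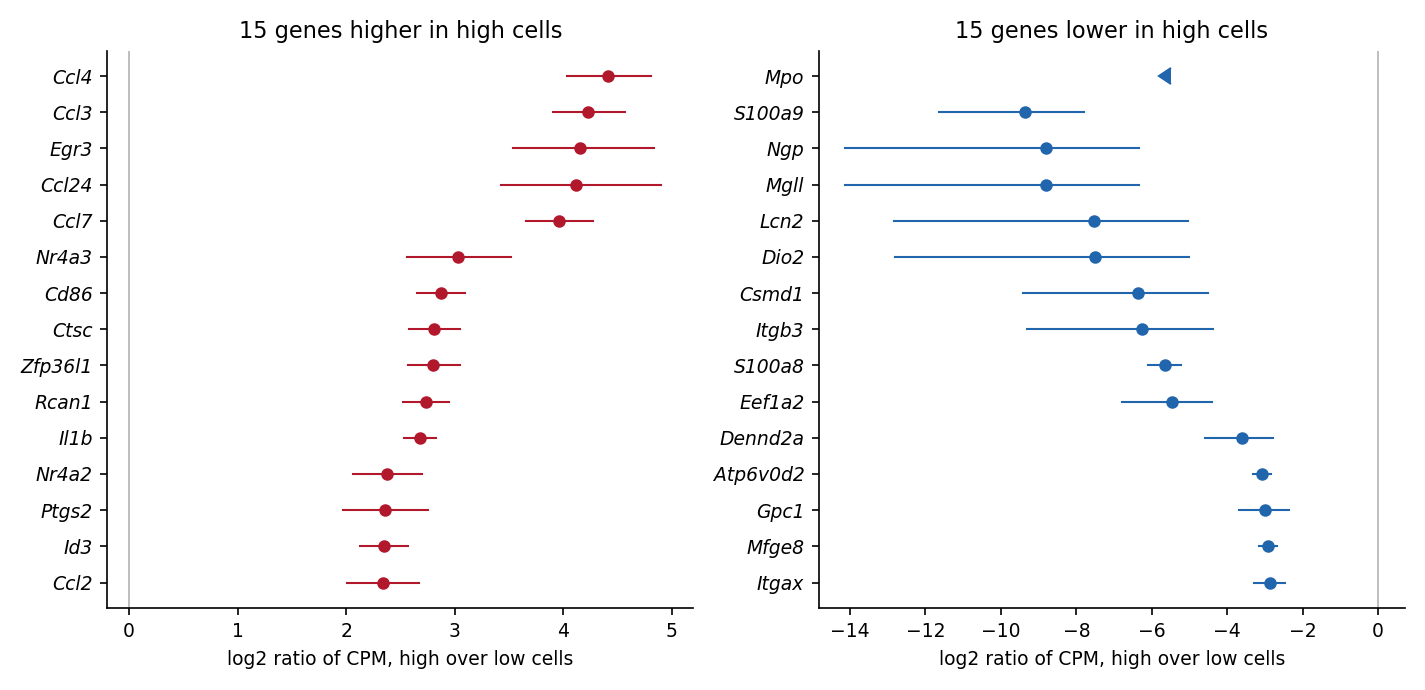
Log2 ratio of CPM, high over low Ctrl cells, for the 15 genes with the largest ratio in each direction. Points are ratios, lines are 95% counting intervals, and the triangle for *Mpo*, which had 0 UMIs in high cells, is its ratio at a floor of 3 counts. *Ccl4* is highest at 4.41.

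Secreted chemokines led the higher genes. *Ccl4* (ENSMUSG00000018930, chromosome 11, 83662584 to 83664683) stood at 345 CPM [322 to 369] in high cells, 107 between and 16.2 CPM [12.4 to 20.7] in low cells, which is 21.3-fold (log2 4.41 [4.04 to 4.81]). *Ccl3* (ENSMUSG00000000982, chromosome 11, 83647844 to 83649355) stood at 407, 124 and 21.6 CPM (18.8-fold, log2 4.23 [3.91 to 4.58]). Both proteins attract monocytes and T cells, and their genes lie side by side. *Ccl7* and *Ccl2*, which draw in monocytes through CCR2, stood at 393 against 25.3 CPM (log2 3.96) and 132 against 26.1 CPM (log2 2.34). *Ccl24*, an attractant of eosinophils, stood at 81.7 against 4.69 CPM (log2 4.12), but 10 of the 595 high cells held 61.3% of its UMIs. For *Ccl3* the 10 richest high cells held 10.7% and for *Ccl4* 11.6%.

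Of the 8 tested genes of the CC chemokine list, 6 were higher and 0 lower, with a median log2 ratio of 3.15. *Ccl9* was the sixth (616 against 321 CPM). *Ccl6* (150 and 133 CPM) and *Ccl5* (18.48 and 25.03 CPM) were within 1.5-fold. Of 5 other CXC chemokines 3 were higher and 0 lower. They were *Cxcl1* (961 against 220 CPM, log2 2.13 [2.02 to 2.24]), which acts on the same receptor as *Cxcl2*, the platelet factor gene *Pf4* (3392 against 1066 CPM, log2 1.67) and *Cxcl16* (214 against 82.9 CPM, log2 1.37). The interferon-induced chemokine *Cxcl10* stood at 28.7 against 39.1 CPM.

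The same pattern was seen in single cells thinned to 2000 UMIs each. *Ccl3* had a UMI in 273 of 595 high cells (45.9% [41.8 to 50]), in 19.1% of the cells between and in 24 of 595 low cells (4.03% [2.60 to 5.94]). Without thinning the shares were 56% and 9.92% in high and low cells. Among 22 cells rich in neutrophil genes, 3 had a *Ccl3* UMI (13.6% [2.91 to 34.9]), an interval that holds the share of the low cells. Of those 22 cells 17 are low cells themselves and the interval is wide. They therefore cannot show whether the share of low cells is background. *Ccl4* had a UMI in 40.5% of thinned high cells, 3.53% of low cells and 0 of the 22 neutrophil-rich cells, which allows a share of up to 15.4%. The median depth before thinning was 3698 UMIs in high, 5940 in low and 3996 in neutrophil-rich cells.

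Among cytokines, 6 of 9 tested genes were higher and 0 lower, with a median of 1.19. *Il1b* (ENSMUSG00000027398, chromosome 2, 129364570 to 129371139), which encodes the inflammasome-processed cytokine interleukin-1 beta, stood at 777 CPM [743 to 813] in high and 122 CPM [111 to 133] in low cells (log2 2.68 [2.53 to 2.83]). It had a UMI in 55.1% of thinned high cells, 39.4% of cells between, 15% of low cells and 1 of 22 neutrophil-rich cells. *Il1a* stood at 197 against 45.1 CPM and *Tnfsf9*, the ligand of the T cell receptor 4-1BB, at 175 against 34.9 CPM. *Il10*, an anti-inflammatory cytokine, stood at 130 against 44.9 CPM (log2 1.53) and *Il1rn*, the interleukin-1 receptor antagonist, at 421 against 185 CPM (log2 1.19). *Tgfb1* stood at 474 and 481 CPM.

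Of the 17 NF-kB subunit and inhibitor genes, all tested, 11 were higher and 0 lower, with a median of 0.92. *Nfkb1*, a subunit, stood at 1404 against 744 CPM (log2 0.92) and *Rel* at 510 against 234 CPM (log2 1.12), while *Rela*, the subunit p65, stood at 76.0 and 52.9 CPM (log2 0.52 [0.23 to 0.82]). The higher genes also included these members of the list. *Nfkbiz* was at 809 against 251 CPM (log2 1.69), *Tnip3* at 848 against 292 CPM (1.54), *Nfkbid* at 235 against 82.7 CPM (1.51), *Nfkbia* at 1485 against 711 CPM (1.06) and *Tnfaip3*, which encodes the deubiquitinase A20, at 514 against 272 CPM (0.92). Other members were within 1.5-fold, among them *Nfkbie* at 0.45, *Tnip1* at 0.42, *Bcl3* at 0.16 and *Cyld*, another deubiquitinase, at -0.44.

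Immediate early genes were higher in 17 of 21 tested, with 0 lower and a median of 1.02. The 4 largest ratios belonged to members of the *Egr* and *Nr4a* families, transcription factors induced within minutes of a stimulus. *Egr3* stood at 107 CPM in high, 36.5 between and 6.00 CPM in low cells (log2 4.15 [3.54 to 4.84]), and *Egr1* at 426, 301 and 85.5 CPM (2.32 [2.14 to 2.50]). *Nr4a3* stood at 95.7 against 11.7 CPM (3.03), *Nr4a2* at 150 against 29.0 CPM (2.38) and *Nr4a1* at 136 against 37.0 CPM (1.88), with *Egr2* at 1.31. *Ier3*, which encodes a survival protein, stood at 1044 against 227 CPM (2.20). Among the AP-1 genes *Fosb* (log2 1.10), *Fosl2* (0.96), *Junb* (0.77) and *Atf3* (0.62) were higher, and *Jund* (0.12) was within 1.5-fold. *Fos* stood at 713 and 576 CPM (0.31) and *Jun* at 366 and 299 CPM (0.29), both within 1.5-fold.

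Feedback genes outside NF-kB were divided between higher genes and genes within 1.5-fold. Of 6 tested MAP kinase phosphatases 4 were higher and 0 lower. *Dusp1* stood at 499 against 217 CPM (log2 1.20), *Dusp16* at 183 against 70.7 CPM (1.37) and *Dusp2* at 172 against 84.5 CPM (1.02), while *Dusp3* stood at -0.31. Of 8 genes for proteins that destroy cytokine mRNA 3 were higher and 0 lower. *Zfp36l1* stood at 324 against 46.4 CPM (2.80), *Zc3h12c* at 261 against 82.7 CPM (1.66) and *Zfp36* at 128 against 56.1 CPM (1.19), while *Zc3h12a* stood at 0.23 and *Zfp36l2* at -0.15. *Rcan1*, an inhibitor of calcineurin, stood at 390 against 58.7 CPM (2.73). *Id3*, an inhibitor of helix-loop-helix transcription factors, stood at 294 against 57.6 CPM (2.35).

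On the receptor side 6 of 16 tested TLR pathway genes were higher and 1 lower. *Tlr2*, which with *Tlr1* recognises bacterial lipoproteins, stood at 203 against 43.3 CPM (log2 2.23 [1.97 to 2.49]), and its co-receptor gene *Cd14* at 432 against 142 CPM (1.61). *Tlr4* stood at 36.1 and 24.8 CPM (0.54 [0.11 to 0.98]), within 1.5-fold. Of 18 tested activation genes 16 were higher and 0 lower. *Cd86*, a costimulatory ligand for T cells, stood at 396 against 54.0 CPM (2.87). *Ptgs2*, the inducible cyclooxygenase, stood at 97.7 against 19.0 CPM (2.36), and *Acod1*, which makes the metabolite itaconate, at 663 against 141 CPM (2.23). The inflammasome sensor gene *Nlrp3* stood at 736 against 299 CPM (1.30). *Ctsc*, the protease that activates granule enzymes, stood at 336 against 48.0 CPM (2.81).

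Interferon-stimulated genes did not follow. Of 16 tested, 2 were higher and 6 lower, with a median of -0.30. *Rsad2* stood at 80.1 against 192 CPM (log2 -1.26 [-1.50 to -1.03]), with 63.1% of the high and 66.8% of the low UMIs in 10 cells, *Ifit1* at 35.3 against 65.2 CPM (-0.88) and *Isg15* at 60.0 against 99.4 CPM (-0.73). *Ifi204* and *Gbp5* were the higher pair (0.78 and 0.70). For *Ifit1* and *Isg15* most of the difference lay in the lowest bin of the score. In the lowest, the second and the highest bin *Ifit1* stood at 65.2, 36.4 and 35.4 CPM and *Isg15* at 99.4, 67.3 and 60.0 CPM. *Rsad2* stood at 192, 164 and 80.2 CPM.

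**Figure D3:**
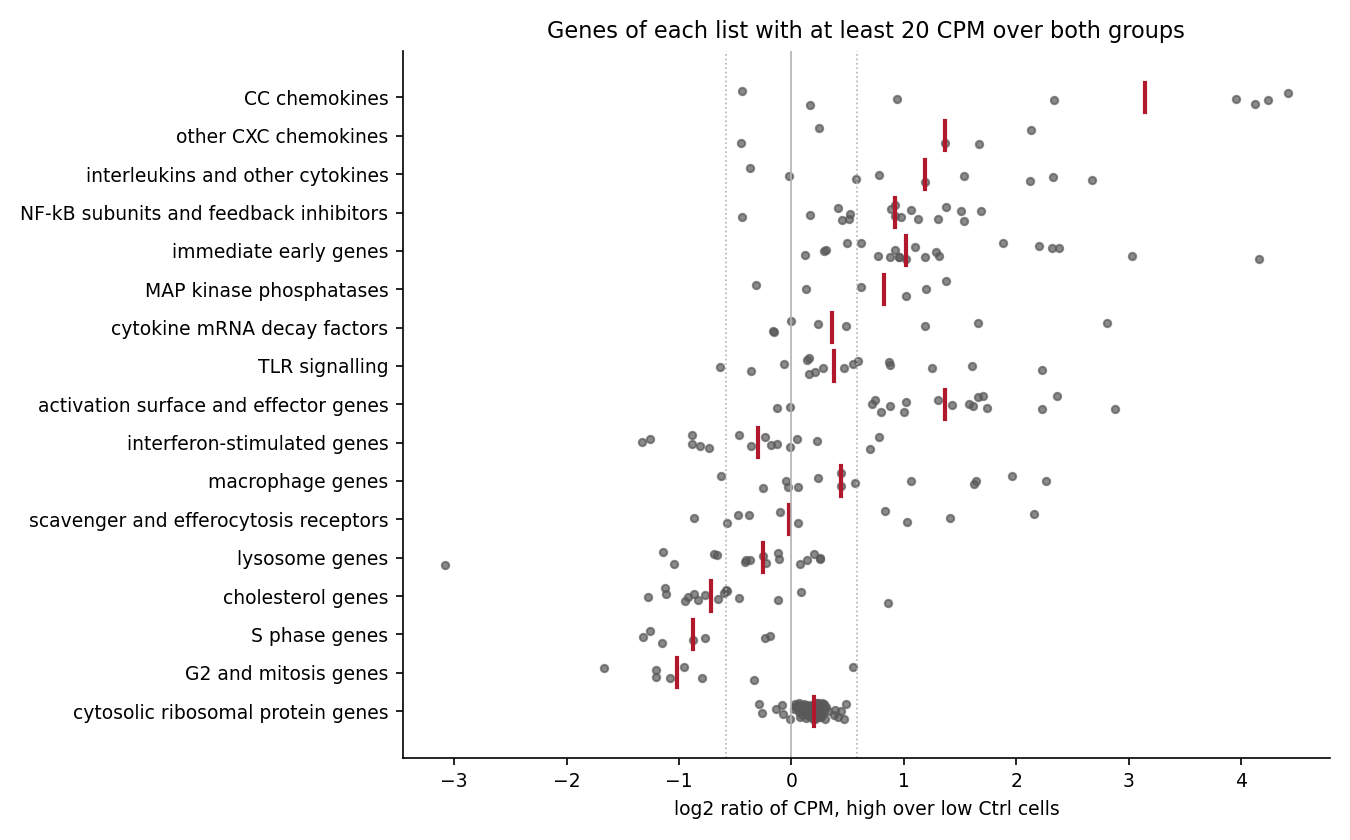
Log2 ratio of CPM, high over low Ctrl cells, for every tested gene (point) of 17 lists. Red bars are list medians and dotted lines mark 1.5-fold. The CC chemokines have the highest median (3.15), and all 80 ribosomal protein genes lie within 1.5-fold.

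The genes lower in high cells were of another kind. Among the 15 with the largest ratio, 5 were neutrophil genes whose UMIs lay mostly in a few cells. *Mpo* had 0 UMIs in high cells and 212 in low cells, which is at least 44.9-fold lower by a floor of 3 counts over the group. *S100a9* had 3 UMIs in high and 3096 in low cells (log2 -9.36 [-11.6 to -7.81]). The 10 richest low cells held 98.1% of the *Mpo* and 81.4% of the *S100a9* UMIs. Without the cells richest in neutrophil and dendritic cell genes the log2 ratio of *S100a9* was 1.25. That value rests on too few UMIs to give a direction, since high cells had 3. *Ngp* and *Lcn2* had 1 UMI each in high cells and 708 and 290 in low cells (log2 -8.81 [-14.1 to -6.33] and -7.53 [-12.8 to -5.04]), and *S100a8* stood at 18.9 against 942 CPM, with 78.9% of the low UMIs in 10 cells. *Csmd1* had 2 UMIs in high cells and 260 in low cells, all of the latter in 3 cells.

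The other 9 were spread over many low cells. *Atp6v0d2* (ENSMUSG00000028238, chromosome 4, 19876841 to 19922605), a proton pump subunit of osteoclasts and of lysosomes, stood at 64.9 CPM [55.2 to 75.8] in high, 159 between and 548 CPM [525 to 572] in low cells (log2 -3.08 [-3.32 to -2.85]). After thinning, 55 high cells (9.24%) and 292 low cells (49.1%) had a UMI of it, and 0 of 22 neutrophil-rich cells. *Mfge8*, a bridging protein for the uptake of dying cells, stood at 63.2 against 476 CPM (-2.91). *Itgax*, which encodes CD11c, stood at 23.4 against 170 CPM (-2.86). *Mgll*, a lipase of monoacylglycerol, had 1 UMI in high cells and 707 in 115 low cells (-8.81 [-14.1 to -6.33]). *Dio2*, which activates thyroid hormone, had 1 UMI in high cells and 284 in 113 low cells (-7.50 [-12.8 to -5.01]). The integrin gene *Itgb3* had 2 and 240 UMIs (-6.25 [-9.31 to -4.38]). The translation factor gene *Eef1a2* had 7 and 488 UMIs (-5.47), *Dennd2a* 12 and 231 (-3.61) and the proteoglycan gene *Gpc1* 22 and 276 (-2.99). Of 8 tested osteoclast genes 6 were lower and 1 higher. The list was written after the lower genes had been seen, so its count and median are a description only. The higher gene was *Nfatc1*, the transcription factor of osteoclast formation (42.3 against 24.0 CPM, 0.82). Among the lower genes were *Ctsk*, the bone-degrading protease, at 50.5 against 280 CPM (-2.47), and the creatine kinase gene *Ckb* at 134 against 811 CPM (-2.60). The list's median was -2.54, and -1.74 without the cells richest in osteoclast, neutrophil, dendritic cell or cell cycle genes.

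Some degradative and biosynthetic genes were also lower. Of 17 lysosome genes 5 were lower, 0 higher and 12 within 1.5-fold. Their median was -0.25, against -0.10 for all tested genes, of which 12.2% were lower. Among the 5 were the protease gene *Ctsd* (5857 against 12063 CPM, log2 -1.04) and *Gpnmb* (6803 against 10994 CPM, -0.69). Of 16 cholesterol genes 10 were lower and 1 higher (median -0.71). The synthesis enzyme *Sqle* stood at 32.9 against 71.5 CPM, and the higher gene was the exporter *Abca1* (470 against 260 CPM, 0.85). Of 7 S phase genes 5 and of 8 genes of G2 and mitosis 6 were lower, with 0 higher in each list. That direction did not hold at equal depth, where the medians were 0.15 and 0.02. Ribosomal protein genes (80 tested), mitochondrial genes (13) and respiratory chain genes (74, of which 1 was lower) had nearly all members within 1.5-fold.

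**Figure D4:**
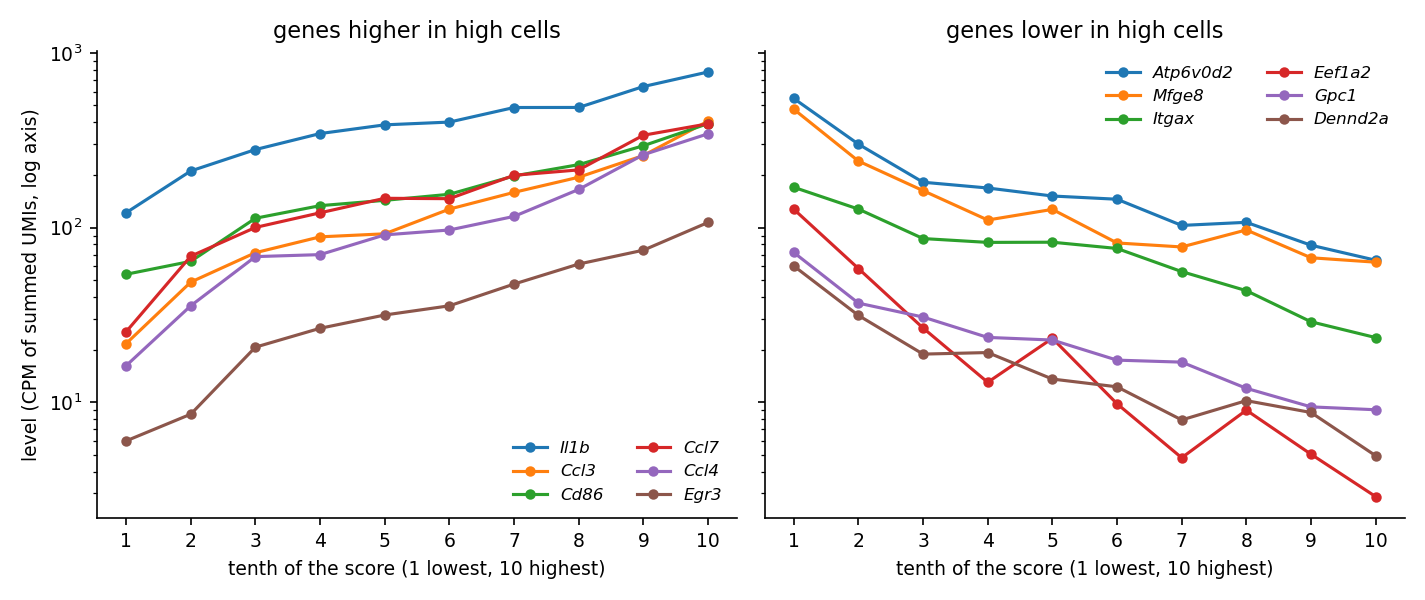
Level in CPM (log axis) of 6 genes higher (left) and 6 genes lower (right) in high cells, over 10 equal bins of the score from lowest to highest. *Ccl4* went from 16.2 to 344 CPM and *Atp6v0d2* from 548 to 65.0 CPM.

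The net change from the lowest to the highest bin was fixed by the choice of these genes, and the levels between were not. Of the 15 higher genes 6 rose at each of the 9 steps between neighbouring bins and 11 at 8 or more. *Il1b* stood at 122, 211, 280, 345, 387, 402, 487, 487, 642 and 778 CPM from the lowest to the highest bin. *Ccl3* stood at 21.6, 48.7, 71.8, 88.4, 92.0, 128, 159, 194, 258 and 407 CPM. The highest bin holds 594 cells. Of the 15 lower genes 1, *Gpc1*, declined at all 9 steps, and 3 at 8 or more. In CPM the lower genes changed most at the low end. *Atp6v0d2* went from 548 to 300 CPM between the lowest pair of bins and from 79.2 to 65.0 between the highest pair. *S100a9* went from 807 to 115 CPM at the first step.

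The study's subset genes also split between high and low cells. All 8 of its phagocytosis genes were higher, with a median of 2.50. These include *Ccl3*, *Ccl4*, *Cd86*, *Zfp36l1* and *Ier3*, together with *Slc9a9* (408 against 93.6 CPM, log2 2.12), *Selenop* (862 against 284 CPM, 1.60) and *Apoe* (607 against 222 CPM, 1.45). Of its 6 antigen presentation genes 5 were lower and 0 higher, among them *Atp6v0a1* (292 against 680 CPM) and *Lpl* (1144 against 2329 CPM). The study chose both lists on these libraries, so they are not independent evidence of direction. Their names follow the results of the study. Its discussion instead labels *Fgf13* and *Ccnd1* cells as inflammatory and *Apoe* and *Slc9a9* cells as antigen-presenting. The antigen presentation list holds no MHC class II gene. Of 4 tested MHC class II genes 2 were higher and 0 lower (median 0.76). When cells were ranked within bins of 6 of these genes (*Apoe*, *Slc9a9* and *Selenop* minus *Lpl*, *Fgf13* and *Ccnd1*), the higher genes numbered 343 and the lower 397. All 15 named genes of each direction stayed past 1.5-fold, with *Ccl4* at 2.32, *Il1b* at 1.75 and *Nr4a2* lowest at 1.18. The CC chemokine median was then 1.98 and the immediate early median 0.56.

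The score genes gave different pictures when used alone. Cells ranked by *Cxcl2* alone had 586 genes higher (10.2% of 5739) and 851 lower (14.8%), and all 30 named genes stayed past 1.5-fold. Cells ranked by *Tnf* alone (595 highest against the 676 with no *Tnf* UMI) had 369 higher (6.52% of 5660) and 292 lower (5.16%). Only *Ccl24* of the 15 higher genes stayed 1.5-fold higher, and 8 had a ratio below 0. By *Tnf* alone *Il1b* stood at -0.39, *Cd86* at -0.48 and *Ccl3* at -0.10, and by *Cxcl2* alone the same genes stood at 3.02, 3.21 and 4.34. Of the cells highest in *Tnf* 83 (13.9%) were also among the highest in *Cxcl2*. Each set is the highest 10%, so a share near 10% would be shared with no relation between the genes. The ranking by *Tnf* rests on fewer counts, with a median of 4 UMIs per ranked cell against 23 of *Cxcl2*. How much of the difference between both scores comes from counting was not tested. Across the highest and lowest *Tnf* cells *Cxcl2* differed by 0.22 [0.18 to 0.25], with 5219 against 4492 CPM, and across those of *Cxcl2* *Tnf* differed by 0.63 [0.54 to 0.72], with 880 against 568 CPM. The 595 high cells of the joint score included 491 of the highest *Cxcl2* cells and 171 of the highest *Tnf* cells.

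Cells highest in *Tnf* were led by other genes. By the same naming rule the largest ratios belonged to *Fgf13* (428 against 121 CPM, log2 1.82 [1.65 to 2.00]), *Fat3* (440 against 129 CPM, 1.77), *Ccnd1*, the cyclin of early G1 (120 against 35.2 CPM, 1.77), *Pvt1* (65.4 against 20.6 CPM, 1.67) and the growth factor genes *Pdgfb* (132 against 43.3 CPM, 1.61) and *Pdgfa* (77.3 against 26.7 CPM, 1.53). *Plau*, which encodes urokinase, stood at 841 against 293 CPM (1.52). The antigen presentation genes had a median of 0.92, where *Cxcl2* alone gave -1.29, and the phagocytosis genes -0.47, where *Cxcl2* alone gave 2.76. MHC class II genes stood at -1.27 and 1.30. The NF-kB list had 2 of 17 genes higher (*Nfkbid* and *Nfkbiz* at 0.86 and 0.70). Depth was closer between the ends of *Tnf*, with medians of 4586 and 3952 UMIs, but both lay below the median of all ranked cells (5194). The list medians and the ratios of the named higher genes by *Tnf* alone were taken without bins of depth. Ranking by *Tnf* within bins of depth (5194 against 5176 UMIs) gave 221 genes higher and 193 lower. *Pdgfb* (1.42), *Plau* (1.40), *Csf1* (1.40), *Cd40* (1.35), *Fgf13* (1.30) and *Tnfsf9* (1.27) were among its 10 leading genes. *Cxcl2* differed by 0.40 [0.36 to 0.43] there.

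**Figure D5:**
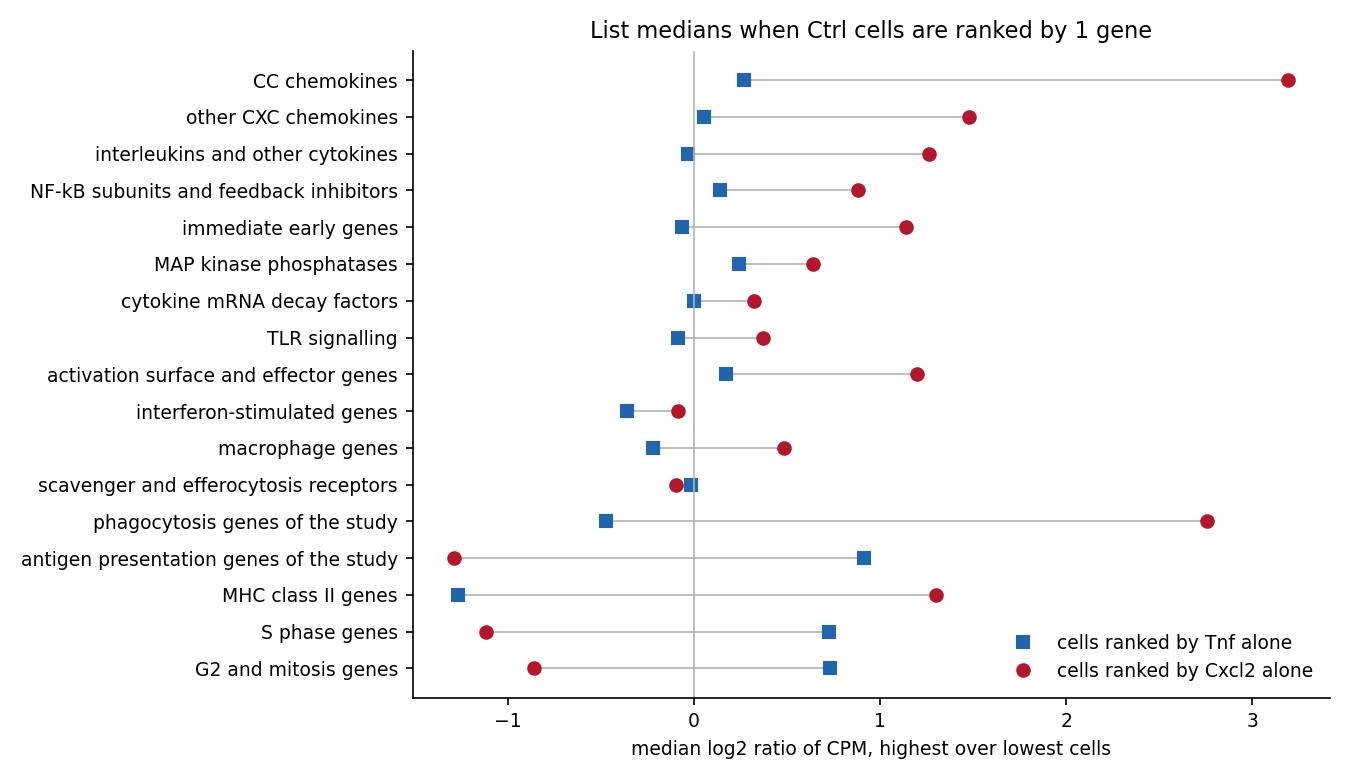
Median log2 ratio of CPM of 17 lists between the highest and the lowest Ctrl cells, ranked by *Tnf* alone (blue squares) or by *Cxcl2* alone (red circles). The phagocytosis genes stand at -0.47 and 2.76, and the antigen presentation genes at 0.92 and -1.29.

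Much of the pattern recurred in the treated libraries, which are other cells of 1 library each, ranked by the same rule. In LP1 (505 high and 505 low of 5052 cells) 381 genes were higher (6.67%) and 439 lower (7.68%). In LP4 (462 and 462 of 4625) 290 were higher (5.2%) and 397 lower (7.12%). Of the genes called higher in Ctrl, 320 of 528 tested (60.6%) were called higher in LP1 and 178 of 487 (36.6%) in LP4. Of those called lower, 302 of 640 (47.2%) and 145 of 547 (26.5%) were called lower. All 15 named higher genes were 1.5-fold higher in LP1, and 10 of the 12 tested in LP4. The 2 others were *Ctsc* (0.04) and *Rcan1* (0.06). *Ccl3* stood at 827 against 73.1 CPM in LP1 (3.499) and at 1445 against 585 CPM in LP4 (1.31), and *Ccl4* at 959 against 69.8 CPM (3.78) and 4037 against 2149 CPM (0.91). The ratios of both chemokines were smaller in LP4, where low cells also had high levels. *Cxcl1* went the other way, from 2.13 in Ctrl to 1.73 in LP1 and 5.202 in LP4, with 2751 against 74.7 CPM in LP4. The ends of the score were unlike between libraries, so the sizes of these ratios are not like for like. The median score per 10000 UMIs was 105.8 in high and 15.4 in low Ctrl cells, 106.3 and 20.2 in LP1, and 68.3 and 0 in LP4. All 14 tested lower genes were at least 1.5-fold lower in LP1. In LP4 all 11 tested had a ratio below 0, and 9 were at least 1.5-fold lower. Set beside whole libraries, the high Ctrl cells had 345 CPM of *Ccl4*, against 290 for all LP1 cells and 2524 for all LP4 cells. For *Il1b* these Ctrl cells had 777 CPM, against 448 and 940. Selected cells are here set beside unselected ones, so the levels are not like for like. High cells of LP1 had 959 CPM of *Ccl4* and 828 CPM of *Il1b*, and those of LP4 4037 and 2327 CPM. Ranked cells taken whole had median scores per 10000 UMIs of 52.5 (Ctrl), 57.3 (LP1) and 10.8 (LP4).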

How the data were processed

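BMDM libraries Ctrl, LP1 and LP4 (1 each, 3 wells pooled) were made with the Chromium 3' v3.1 kit. The authors aligned reads to mouse mm10 with Cell Ranger (7.1.0 per the file headers) and deposited raw UMI counts of 32285 genes for the barcodes called as cells, not normalized. Gene positions are from GENCODE vM21 on GRCm38.

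From these counts the limits on UMIs, genes and mitochondrial share left 6071 Ctrl cells, of which 122 under 2000 UMIs were not ranked. UMIs were summed per group and scaled to CPM. A gene was tested if it had at least 20 CPM over both groups and called at 1.5-fold. Named genes are the 15 leading ratios upward and the 15 downward, at a minimum of 50 CPM in the higher group, without mitochondrial, ribosomal and unnamed genes, and members of the lists. The cells, lists and comparisons were chosen with earlier results of these data known. Genes and cells are not replicates, so no p-values are given. Cells were thinned to 2000 UMIs for shares of cells with a UMI (seed 20). Promoters are RefSeq windows, with motif matches in the 250 bases before the start. Doublets were scored and not removed. Alternatives covered the share of cells taken, the score, scaling, cell filters and cell types. Sums and intervals used scipy 1.17.1, pandas 2.3.3 and numpy 2.4.6 in Python 3.11.15, doublet scores scanpy 1.11.5. TMM factors came from edgeR 4.0.16 and median-of-ratios factors from DESeq2 1.42.0 (R 4.3.3), both for scaling only.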

Additional observations from a re-analysis of the deposited data

Results flagged for a closer look

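Among the named and list genes, *Mertk* and *Axl*, receptors for dying cells, were called in opposite directions in Ctrl and LP4. They are not the only such genes. Of all genes called higher in Ctrl, 5 of 487 tested were called lower in LP4. Of those called lower in Ctrl, 7 of 547 tested were called higher. The log2 ratio of *Mertk*, high over low cells, was 1.64 in Ctrl and -0.63 [-0.96 to -0.31] in LP4, where levels were 24.7 and 38.3 CPM, and 1.56 in LP1. That of *Axl* was 0.83 in Ctrl, 0.84 in LP1 and -0.63 [-0.91 to -0.35] in LP4, with 33.9 and 52.3 CPM. The difference between libraries was not tested, since each condition is 1 library, and its cause was not tested. The ends of the score were also unlike, with low cells at a median of 15.4 per 10000 UMIs in Ctrl and 0 in LP4.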

How the results depend on the processing

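No paired analysis was possible because each condition is 1 library and high and low cells come from the same library. Of 1309 values recomputed under the alternatives, 970 fell in the class of smallest change, 304 moved and 35 changed direction. Of these 35, 21 did so with cells ranked by *Tnf* alone. The cause was not tested unless stated. The class of smallest change still holds sizeable changes, among them 699 higher and 482 lower genes by TMM and 728 higher by median of ratios. Genes higher in high cells numbered 547, and 360 with 20% of cells at each end, 144 against all other cells, 343 within bins of subset genes (added after the data were seen) and 858 at a minimum of 5 CPM, where more genes are tested. Genes lower numbered 696, and 1147 with 5% of cells, 401 with 20%, 424 within bins of depth, 292 by *Tnf* alone, 318 against all other cells, 449 by median of ratios, 397 within subset bins, 1708 at 5 CPM and 303 at 50 CPM, where fewer genes are tested. In LP1 and LP4 the lower genes numbered 248 and 219 within depth bins, against 439 and 397.

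The CC chemokine median was 4.45 with 5% of cells, 2.64 with a thinned score, 2.74 within depth bins, 0.27 by *Tnf* alone, 1.45 against all other cells and 1.98 within subset bins. The NF-kB median was 1.31 with 5%, 0.61 with 20%, 0.71 with a thinned score, 0.14 by *Tnf* alone, 0.37 against all others and 0.71 within subset bins. The immediate early median was -0.0628 by *Tnf* alone, 0.40 against all others and 0.56 within subset bins. By *Tnf* alone the medians also turned for interleukins (-0.0299), phagocytosis (-0.47), antigen presentation (0.92), MHC class II (-1.27), S phase (0.73), G2 and mitosis (0.73), cholesterol (0.0445) and neutrophil genes (0.24), and the ratios of *Ccl3* (-0.10), *Cd86* (-0.48), *Ctsc* (-0.0466), *Zfp36l1* (-0.42), *Il1b* (-0.39), *Nr4a2* (-0.83), *Ptgs2* (-0.13), *Id3* (-0.62), *S100a9* (0.94), *Lcn2* (3.16), *S100a8* (0.99) and *Itgax* (0.13). Within depth bins the monocyte (0.57), S phase (0.15) and G2 and mitosis (0.0179) medians turned. The last 2 also turned with at least 5000 UMIs (0.27 and 0.28) and within subset bins (0.28 and 0.0527), and antigen presentation turned there (0.24). Without cycling cells G2 and mitosis stood at 1.30, and at 1.22 without cells rich in any other list. Without the cells richest in neutrophil and dendritic cell genes, neutrophil genes stood at 0.24 and *S100a9* at 1.25; without cells rich in any other list they stood at 0.0349 and 1.23, since those cells held most of the UMIs. Both of these *S100a9* ratios rest on too few UMIs to give a direction. High cells had a median of 3698 UMIs, and genes under 20 CPM in the main comparison were not compared.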

Other observations

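Outside the inflammatory lists, some uptake and surface genes were higher in high cells and others lower. Of 10 tested scavenger and efferocytosis genes 4 were higher and 1 lower, with a median log2 ratio of -0.02. Within bins of subset genes 1 was higher and 2 lower. Without cells rich in any other list 3 were higher and 3 lower. *Gas6*, a bridging ligand for dying cells, stood at 48.87 against 10.95 CPM (log2 2.16), *Stab1* at 180 against 67.8 CPM (1.41) and *Mrc1*, the mannose receptor, at 169 against 82.7 CPM (1.03). *Cd36*, a lipid scavenger receptor, was lower at 408 against 746 CPM (-0.87). Of 4 tested MHC class II genes *Cd74* (271 against 107 CPM, 1.35) and *H2-Aa* (31.2 against 15.1 CPM, 1.05) were higher. Within depth bins, and without cells rich in any other list, 2 were tested and 1 was higher. Within bins of subset genes 0 of 2 were higher, and in LP1 0 of 3. Of 9 actin cytoskeleton genes *Lsp1* (260 against 108 CPM, 1.27), *Tmsb4x* and *Coro1a* were higher and *Tmsb10* lower (455 against 1067 CPM, -1.23).

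Metabolic and stress lists differed in how many genes stayed within 1.5-fold, where 4480 of all 5723 tested genes did. The counts were 13 of 14 for glycolysis, 8 of 10 for heat shock, 7 of 11 for antioxidant and iron genes, and 2 of 4 for the unfolded protein response. Of 14 tested glycolysis genes 1, *Ldha*, was lower (275 against 490 CPM), and of 10 heat shock genes *Hspd1* and *Hsph1* were lower. Of 11 antioxidant and iron genes *Sqstm1* (759 against 432 CPM) and *Slc7a11* (318 against 208 CPM) were higher and *Prdx1* (953 against 1803 CPM) and the ferritin gene *Fth1* (37569 against 58528 CPM) lower. Of the 2 tested monocyte genes *Fn1*, fibronectin, was lower (34.1 against 232 CPM, -2.77) and *Vcan* higher (37.0 against 14.9 CPM, 1.31). Of 4 stress genes of the unfolded protein response *Ppp1r15a* and *Herpud1* were higher (both 0.98).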
